A study of Mus musculus with 12 samples.

Results

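Of 8 genes for factors that brown fat is reported to secrete, 7 were measured here, out of 22180 genes with a named probe set on the arrays. The measured genes were Fgf21, Prg4, Nrg4, Igf1, Bmp8b, Il6 and Stc2, each read by a single probe set whose platform annotation names 1 gene. Gdf15 had no such probe set and was not analysed here. Arrays that read whole transcripts were run on brown fat of 12 mice, 3 in each of 4 groups and each mouse on its own array. The groups were adipocyte-specific Sel1L knockouts at 4 °C, their controls at 4 °C, knockouts at room temperature and controls at room temperature, all after 5 h of fasting and on a C57BL/6J background. Knockouts came from crossing Sel1L f/f mice with Adiponectin-Cre mice, and the controls, which the sample labels call wildtype, were Sel1L f/f littermates. The labels speak of brown adipose tissue, whereas brown adipocytes are named in the text on the series' design. Adiponectin-Cre acts in white as well as brown adipocytes, so the deletion was not limited to the tissue sampled, and cells other than adipocytes keep Sel1L. Ages and sexes are not given in the labels.

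Sel1L is the partner of the ubiquitin ligase Hrd1 in ER-associated degradation, the route by which misfolded proteins leave the endoplasmic reticulum and are destroyed. Brown fat burns lipid to make heat, and in the cold it also releases proteins that act on itself, on other fat and on distant organs. FGF21, a hormone of the fibroblast growth factor family, signals through FGF receptors together with the coreceptor beta-Klotho, and its gene is a known target of ATF4, the transcription factor of the integrated stress response. NRG4 is an epidermal growth factor-like ligand of ERBB4, BMP8B belongs to the bone morphogenetic proteins, IL6 is a cytokine that signals through IL6RA and gp130, and IGF1 is a growth factor held in the circulation by IGF-binding proteins. STC2 inhibits PAPPA, a protease that frees IGFs from a binding protein. PRG4, or lubricin, is a mucin-like glycoprotein best known as the lubricant of joint surfaces.

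The values are log2 expression after RMA, a method that corrects background, gives all arrays the same distribution and reduces each probe set to a single value. Arrays of the same group had a Pearson r between 0.985 and 0.993 over probe sets, a description only, since probe sets are no replicates. Array medians lay between 2.03 and 2.09. Sel1l itself was lower in the knockout-labelled arrays at room temperature (-1.12 ± 0.14, SE, limma adjusted p = 0.00114) and was not called at 4 °C (-0.19 ± 0.14, adjusted p = 0.605), so at 4 °C this reading did not check the labels, and the word knockout-labelled is used throughout. With cold, Sel1l rose in the knockout-labelled arrays (0.66 ± 0.14, limma adjusted p = 0.0124). In controls its cold difference of -0.28 ± 0.14 was not called (adjusted p = 0.28). The difference between these responses of Sel1l did not pass (adjusted p = 0.0862). Positions of the probes within Sel1l were not used here. The brown fat markers Ucp1 (12.38 to 12.83 over the 12 arrays) and Cidea (11.59 to 11.89) and the general adipocyte marker Fabp4 (12.13 to 12.49) were bright on every array. For control replicate 3 at room temperature, the title gives room temperature, but 4 °C stands in its source name. Over the 2123 probe sets that differed with cold in the knockout-labelled arrays, that array lay a mean of 0.64 from the 4 °C controls and 0.21 from the other room temperature controls, and it was kept at room temperature. Moved to the 4 °C controls, it left 0 of 23521 probe sets called for cold in controls by limma (3602 at an unadjusted p under 0.05). All calls of cold in controls below thus depend on that array not being from 4 °C. With it left out, Fgf21 and Prg4 were still called for cold in controls (limma adjusted p = 4.37e-05 and 0.00736). Skeletal muscle markers varied between mice. The mean of all 14 markers ranged from 2.71 to 6.83 in the knockout-labelled arrays and from 5.14 to 8.10 in controls at 4 °C, and from 3.13 to 6.61 in the knockout-labelled arrays and from 6.64 to 7.44 in controls at room temperature. Fgf21 is also expressed by muscle, and fits with this mean as a covariate are given where they changed a call. Of the marker lists read for cell types, limma called genes by genotype at a single temperature in the brown adipocyte list alone (0 higher and 2 lower of 10 at 4 °C). Of all probe sets, 3.61% were higher and 2.19% lower there. None of the 14 muscle markers was called, but their median difference by genotype was -1.04 at 4 °C and -2.30 at room temperature. At room temperature the muscle mean of every knockout-labelled array lay below that of every control. The same held at 4 °C for the brown adipocyte (10.54 to 10.57 against 10.80 to 10.91), endothelium, T and B cell and white adipocyte lists. At room temperature it also held for white adipocytes (2.61 to 2.73 against 2.83 to 3.21) and for tendon, synovium and mesothelium. T and B cell means were higher there in every knockout-labelled array. These separations of list means were not tested. In a whole tissue, a change in the share of a cell type and a change of RNA per cell cannot be told apart.

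The bases upstream of the annotated starts of 4 genes, chosen for the reasons that follow, are shown as a description only. Their part in the readings was not tested. Fgf21 and Stc2 are both known targets of ATF4 and read differently here, Nrg4 is the other member with a called change for which a promoter sequence was at hand, and Klb encodes the coreceptor of FGF21. The sequences are from RefSeq on GRCm38.p6, 250 bases each, written 5′ to 3′ in the direction of transcription and ending at the base before the start. Capitals mark matches to the motifs searched.
Fgf21, chr7:45615491-45615740, minus strand: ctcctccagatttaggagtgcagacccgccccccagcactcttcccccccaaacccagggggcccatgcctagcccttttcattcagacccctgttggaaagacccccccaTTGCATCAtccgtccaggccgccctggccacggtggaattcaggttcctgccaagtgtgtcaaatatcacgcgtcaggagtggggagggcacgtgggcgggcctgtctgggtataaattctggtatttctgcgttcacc
Stc2, chr11:31370062-31370311, minus strand: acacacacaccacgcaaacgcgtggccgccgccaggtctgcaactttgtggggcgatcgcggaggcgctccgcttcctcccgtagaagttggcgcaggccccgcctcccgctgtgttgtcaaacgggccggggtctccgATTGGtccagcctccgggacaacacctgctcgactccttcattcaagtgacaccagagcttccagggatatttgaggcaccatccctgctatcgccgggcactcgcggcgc
Nrg4, chr9:55283626-55283875, minus strand: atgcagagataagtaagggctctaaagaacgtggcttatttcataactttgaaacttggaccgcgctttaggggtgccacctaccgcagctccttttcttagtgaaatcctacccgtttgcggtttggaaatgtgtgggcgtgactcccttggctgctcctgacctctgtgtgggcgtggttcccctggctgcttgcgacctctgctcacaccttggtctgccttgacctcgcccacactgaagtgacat
Klb, chr5:65348161-65348410, plus strand: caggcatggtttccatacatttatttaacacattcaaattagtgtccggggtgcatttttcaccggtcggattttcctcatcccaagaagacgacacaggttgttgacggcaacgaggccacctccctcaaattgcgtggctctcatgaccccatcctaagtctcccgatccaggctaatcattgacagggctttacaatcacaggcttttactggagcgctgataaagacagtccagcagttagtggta
Both strands of windows of 300 bases, which add 50 bases after the start, were searched for TGATGNAA (the core of C/EBP-ATF response elements bound by ATF4), TGACGTCA (the cAMP response element), TGACGTGG (an element of XBP1 and ATF6), the ER stress element (CCAAT and CCACG at its known spacing) and CCAAT alone, which the ER stress element contains. Promoter windows were found for 7 of the 8 genes, all but Prg4. Among these, TGATGNAA was matched only in Fgf21, as TTGCATCA on the opposite strand beginning at position -139 from the start. Of 32851 promoter windows of this length, 3.97% held TGATGNAA, 1.79% TGACGTCA, 0.676% TGACGTGG and 0.119% the ER stress element. Stc2 held CCAAT at -111, as ATTGG on the opposite strand, a motif found in 37.4% of windows, and Bmp8b, Il6, Igf1 and 1 of 2 windows of Gdf15 held it too. Nrg4 and Klb held none of the motifs searched. A match is a description of letters, and a missing match says nothing about binding.

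Fgf21 was the member that moved most with cold, and it was also higher in the knockout-labelled arrays at both temperatures. It read 8.06, 8.27 and 7.86 in the knockout-labelled arrays at 4 °C and 6.67, 6.52 and 6.35 in the controls at 4 °C. At room temperature it read 4.40, 2.90 and 4.06 in the knockout-labelled arrays and 1.57, 2.13 and 2.79 in the controls. The 4 groups did not overlap, and they fell in a single order, with the knockout-labelled arrays at 4 °C highest and the controls at room temperature lowest. In controls, Fgf21 rose 20.4-fold with cold (log2 4.35 ± 0.35 SE, n = 3 per group, limma adjusted p = 3.1e-05). In the knockout-labelled arrays it rose 19.3-fold (4.27 ± 0.35, adjusted p = 3.24e-05). The difference between these cold responses was -0.08, with a 95% interval of -1.15 to 0.98 (adjusted p = 0.98), an interval that leaves room for a difference of about 1 in either direction on the log2 scale. The readings of controls at room temperature, with a mean of 2.16, were near the array medians, so the fold of the controls with cold may be understated. The same limit holds for the genotype difference at room temperature and for the difference between the cold responses.

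Between genotypes, Fgf21 was 2.92-fold higher in the knockout-labelled arrays than in controls at 4 °C (1.55 ± 0.35, adjusted p = 0.0197) and 3.1-fold higher at room temperature (1.63 ± 0.35, adjusted p = 0.034). Averaged over both temperatures the difference was 1.59 ± 0.25, or 3.01-fold (adjusted p = 0.00144). The averaged call was kept without any single array and lost with the array of conflicting labels moved to 4 °C (2.21, adjusted p = 0.057). Each of the separate calls was less firm. At room temperature the call was lost without control replicates 1 or 2, without knockout-labelled replicates 1 or 3, or without any knockout-labelled array at 4 °C (adjusted p up to 0.129), while the difference stayed between 1.32 and 2.07. A fit with the muscle marker mean as covariate lost it as well, although the difference was larger (1.93, adjusted p = 0.0511), as did fits with the replicate number as a block (adjusted p = 0.0592) and limited to the 6 arrays compared (adjusted p = 0.146). At 4 °C the call was lost without any single control at 4 °C and without knockout-labelled replicates 1 or 2 (adjusted p up to 0.0816), and with the array of conflicting labels moved (adjusted p = 0.102). With all probe sets tested the adjusted p at room temperature was 0.0801, and the call of Fgf21 at 4 °C was lost too. Without the control with conflicting labels, the room temperature difference was 1.94 (adjusted p = 0.0203), and with that array moved to 4 °C the same difference missed the threshold (adjusted p = 0.52).

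**Figure D1:**
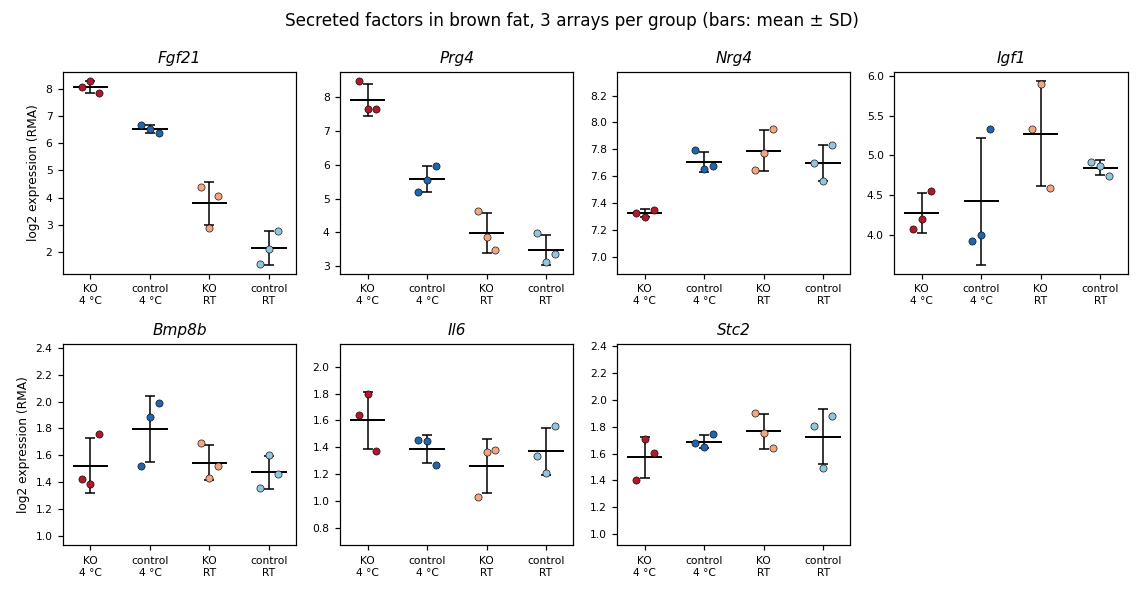
log2 expression of the 7 measured secreted factors by group, with 1 point per array and the mean ± SD of 3 arrays. Fgf21 and Prg4 span several log2 units and separate by temperature, Nrg4 lies lowest in the knockout-labelled arrays at 4 °C, and Bmp8b, Il6 and Stc2 lie below 2.03, the lowest array median.

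Prg4 rose with cold in both genotypes, and in the cold it was 5.09-fold higher in the knockout-labelled arrays than in controls. It read 8.47, 7.65 and 7.64 in the knockout-labelled arrays at 4 °C, against 5.20, 5.54 and 5.96 in the controls at 4 °C. At room temperature it read 4.63, 3.85 and 3.48 in the knockout-labelled arrays and 3.98, 3.12 and 3.38 in the controls, and these groups overlapped. At 4 °C the genotypes did not overlap (2.35 ± 0.32, limma adjusted p = 0.000656), whereas the difference at room temperature was 0.49 ± 0.32 (adjusted p = 0.594). Cold raised Prg4 15.2-fold in the knockout-labelled arrays (3.93 ± 0.32, adjusted p = 3.41e-05) and 4.21-fold in the controls (2.08 ± 0.32, adjusted p = 0.00161). The test of the difference between these responses gave 1.85 ± 0.46 with an unadjusted p of 0.0015, which did not pass over all probe sets (adjusted p = 0.135). The calls of Prg4 at 4 °C and with cold in each genotype held without any single array. Without the control with conflicting labels the cold rise of the controls was 2.02 (adjusted p = 0.00736).

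PRG4 is made in joints, tendons and other connective tissue, and the tissue could hold such cells. The 10 markers of tendon, synovium and mesothelium, among them Tnmd, Scx, Comp and Msln, had a mean of 1.82 to 1.88 in the knockout-labelled arrays and 1.66 to 1.99 in controls at 4 °C. At room temperature it was 1.80 to 1.81 in the knockout-labelled arrays and 1.81 to 1.93 in controls. None of the 10 was called in any of the comparisons, and these means lay below the array medians in all groups. The 9 measured fibroblast and preadipocyte markers were likewise not called. Dim markers may miss a small share of such cells, and the part of these cells in the Prg4 readings was not tested.

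Nrg4 fell with cold in the knockout-labelled arrays. It read 7.33, 7.29 and 7.35 in the knockout-labelled arrays at 4 °C, against 7.79, 7.65 and 7.67 in the controls at 4 °C. At room temperature the values were 7.65, 7.77 and 7.95 in the knockout-labelled arrays and 7.70, 7.57 and 7.83 in the controls. The knockout-labelled arrays at 4 °C lay below every other array. With cold Nrg4 was 1.38-fold lower in the knockout-labelled arrays (-0.47 ± 0.11, limma adjusted p = 0.0187), and in controls the difference was 0.01 ± 0.11 (adjusted p = 0.98). The cold responses differed by -0.48 ± 0.16 with an unadjusted p of 0.00956, which did not pass over all probe sets (adjusted p = 0.293). The genotype difference at 4 °C was -0.38 ± 0.11 and also missed the threshold (adjusted p = 0.0655). The cold call was lost without knockout-labelled replicates 2 or 3 at room temperature or replicates 1 or 2 at 4 °C (adjusted p up to 0.0751).

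Igf1 varied most between mice of a group. It read 4.08, 4.20 and 4.55 in the knockout-labelled arrays at 4 °C, and 3.93, 4.00 and 5.34 in the controls at 4 °C. At room temperature it read 5.33, 5.90 and 4.58 in the knockout-labelled arrays and 4.92, 4.87 and 4.75 in the controls. Within the knockout-labelled arrays the temperatures did not overlap, and the difference of -0.99 ± 0.36 did not pass (limma adjusted p = 0.119). It passed without knockout-labelled replicate 3 at room temperature or without control replicate 3 at 4 °C (adjusted p down to 0.0292). In controls the cold difference was -0.42 ± 0.36 (adjusted p = 0.566). The genotype differences were -0.14 at 4 °C and 0.42 at room temperature, each with an SE of 0.36 (adjusted p = 0.912 and 0.705). Macrophages and fibroblasts also express Igf1. The mean of the 12 macrophage markers was 5.31 to 5.54 in the knockout-labelled arrays and 4.94 to 5.75 in controls at 4 °C, and 5.11 to 5.30 in the knockout-labelled arrays and 4.90 to 5.46 in controls at room temperature. The part of these cells in the spread of Igf1 was not tested.

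Bmp8b, Il6 and Stc2 stayed at the dim end of the arrays in all groups, with means above those of 30.0%, 17.5% and 35.2% of named probe sets. Bmp8b ranged from 1.39 to 1.76 in the knockout-labelled arrays and from 1.52 to 1.99 in controls at 4 °C. At room temperature it ranged from 1.43 to 1.69 in the knockout-labelled arrays and from 1.36 to 1.60 in controls. Il6 lay between 1.03 and 1.80 on the 12 arrays, and Stc2 between 1.41 and 1.90. None of these genes was called in any comparison by limma, and in each of the 4 pairwise comparisons their groups overlapped. The largest differences were 0.34 ± 0.14 for Il6 with cold in the knockout-labelled arrays (adjusted p = 0.19) and 0.32 ± 0.15 for Bmp8b with cold in controls (adjusted p = 0.207). For Stc2 the genotype difference was -0.12 with a 95% interval of -0.39 to 0.16 at 4 °C and 0.04 with an interval of -0.24 to 0.31 at room temperature. RMA compresses differences of dim probe sets, so these intervals hold for the readings and not for RNA amounts.

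**Figure D2:**
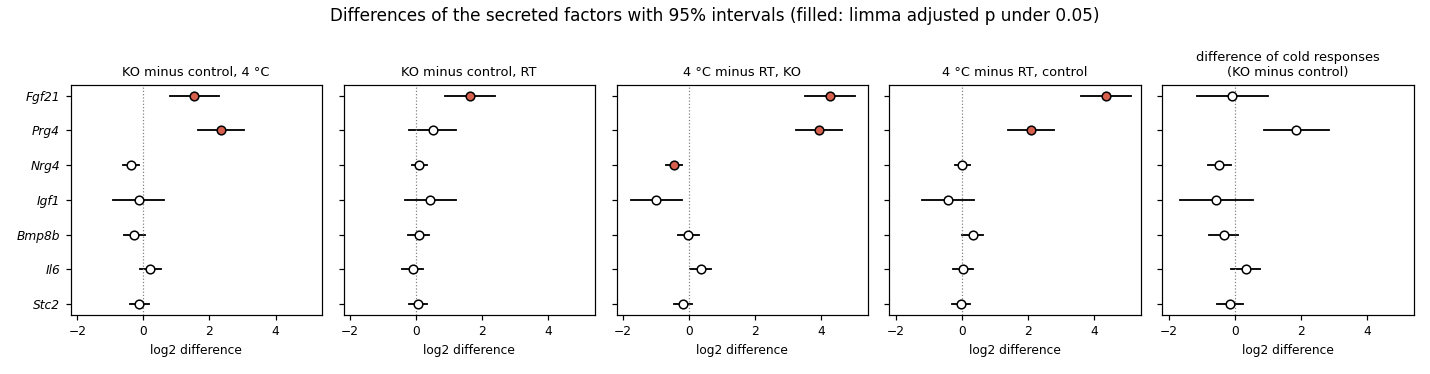
log2 differences of the 7 measured factors with 95% intervals of the limma fit, for genotype at each temperature, cold in each genotype, and the difference between the cold responses. Filled points passed the test. Fgf21 differs in 4 panels and Prg4 in 3, and no member passes the test in the panel of the difference between cold responses.

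Set against all probe sets, the counts of members were as follows. At 4 °C, 2 of the 7 measured members were higher in the knockout-labelled arrays and 0 lower, where limma called 5.8% of 23521 probe sets (3.61% higher and 2.19% lower). At room temperature 1 of 7 was higher and 0 lower, against 1.72% of probe sets (1.29% higher and 0.429% lower). With cold in the knockout-labelled arrays 2 rose and 1 fell, against 9.03% of probe sets (4.32% higher and 4.7% lower). With cold in controls 2 rose and 0 fell, against 11.1% (4.85% higher and 6.23% lower). For the difference between cold responses limma called 0 members, where 0.306% of probe sets passed (0.23% higher and 0.0765% lower). At an unadjusted p under 0.05 by limma there were 2 members, Prg4 and Nrg4, and 2298 of the 23521 probe sets. For genotype averaged over temperatures 2 of 7 were higher, against 6.96% of probe sets (4.24% higher and 2.73% lower). For cold averaged over genotypes 2 of 7 rose, against 17.6% (7.51% higher and 10.1% lower). The median over the 7 members was -0.12 for genotype at 4 °C and 0.02 for cold in controls, against a median of -0.01 over all probe sets in both.

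Among receptors and binding partners of these factors, the change with the largest size was that of Klb, which encodes beta-Klotho, the coreceptor of FGF21. Klb read 7.89, 7.92 and 8.07 in the knockout-labelled arrays at 4 °C, against 5.98, 5.77 and 6.94 in the controls at 4 °C. At room temperature it read 8.11, 8.49 and 7.94 in the knockout-labelled arrays and 7.91, 7.80 and 8.07 in the controls. The controls at 4 °C lay below all other arrays, and the knockout-labelled arrays at 4 °C overlapped those at room temperature. In controls Klb fell 3.24-fold with cold (-1.69 ± 0.25, limma adjusted p = 0.00106), while in the knockout-labelled arrays the difference was -0.22 ± 0.25 (adjusted p = 0.712). At 4 °C it was 3.31-fold higher in the knockout-labelled arrays (1.73 ± 0.25, adjusted p = 0.000837), and at room temperature the difference was 0.25 ± 0.25 (adjusted p = 0.756). The test of the difference between cold responses gave 1.47 ± 0.35 and did not pass (adjusted p = 0.112). The calls of Klb at 4 °C and with cold in controls held without any single array. With the array of conflicting labels moved to 4 °C, the genotype call at 4 °C was lost too (adjusted p = 0.133). Fgfr1, the FGF receptor that pairs with beta-Klotho in fat, was not called. It read 5.31, 5.59 and 5.59 in the knockout-labelled arrays at 4 °C and 4.92, 5.15 and 5.51 in the controls at 4 °C, with a difference of 0.30 ± 0.18 (adjusted p = 0.459). Fgfr3 rose with cold in controls (0.87 ± 0.14, adjusted p = 0.00179). In the knockout-labelled arrays its cold difference of 0.35 ± 0.14 did not pass (adjusted p = 0.167). Fgfr2 was higher by 1.38 ± 0.44 in the knockout-labelled arrays at 4 °C, without overlap, and did not pass (adjusted p = 0.0992). Fgfr4 was not called in any comparison.

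Erbb4, which encodes the receptor of NRG4, was lower with cold in controls. It read 3.60, 4.30 and 4.08 in the knockout-labelled arrays and 3.64, 2.92 and 3.23 in the controls at 4 °C. At room temperature it read 3.98, 4.29 and 3.92 in the knockout-labelled arrays, with 4.32, 4.58 and 4.14 in the controls. The cold difference of controls was -1.08 ± 0.21 (limma adjusted p = 0.0054), and in the knockout-labelled arrays it was -0.07 ± 0.21 (adjusted p = 0.913). These responses differed by 1.01 ± 0.30, which did not pass (adjusted p = 0.229). Il6ra, the ligand-binding chain of the IL6 receptor, read 7.57, 7.29 and 7.37 in the knockout-labelled arrays at 4 °C, against 5.97, 6.32 and 6.30 at room temperature, and rose 2.31-fold (1.21 ± 0.21, adjusted p = 0.00307). In controls the Il6ra difference with cold was 0.63 ± 0.21 (adjusted p = 0.0732), and the responses differed by 0.58 ± 0.29 (adjusted p = 0.573). Il6st, the signalling chain gp130, and Igf1r, the IGF1 receptor, were not called in any comparison. Il6st lay between 7.88 and 8.42 and Igf1r between 4.15 and 4.83 on the 12 arrays.

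Of the 7 genes Igfbp1 to Igfbp7, 1 was called with cold in the knockout-labelled arrays and 2 in controls. Igfbp3, a main carrier of IGF1 in blood, rose by 0.62 ± 0.17 in the knockout-labelled arrays (limma adjusted p = 0.0401) and by 0.98 ± 0.17 in controls (adjusted p = 0.00311). The first of these calls did not hold for each array left out (highest adjusted p 0.161, without knockout-labelled replicate 1 at 4 °C). Igfals, whose product joins IGFs and their binding protein in a larger complex, read 1.25, 1.18 and 1.54 in the knockout-labelled arrays and 1.78, 1.79 and 2.44 in the controls at 4 °C, against 2.38, 2.54 and 2.16 in the knockout-labelled arrays and 2.75, 2.86 and 2.84 in the controls at room temperature. It fell with cold in the knockout-labelled arrays (-1.04 ± 0.18, adjusted p = 0.00289) and in controls (-0.81 ± 0.18, adjusted p = 0.0102), from readings near the array medians. Its genotype call at 4 °C (-0.68 ± 0.18, adjusted p = 0.0399) did not hold for each array left out (highest adjusted p 0.146, without knockout-labelled replicate 2 at 4 °C). Pappa, the protease that STC2 inhibits, rose with cold in controls (1.10 ± 0.28, adjusted p = 0.0231), and Igfbp5 fell (-1.09 ± 0.30, adjusted p = 0.0352). Neither call held on leaving out each array in turn (highest adjusted p 0.097 without control replicate 2 at 4 °C and 0.143 without control replicate 1 at room temperature). In all, of 37 genes for receptors and partners, 1 was higher and 1 lower in the knockout-labelled arrays at 4 °C, and 0 of 37 were called at room temperature. With cold 3 rose and 3 fell in the knockout-labelled arrays, and 3 rose and 4 fell in controls. Over all probe sets, limma called 5.8% for genotype at 4 °C and 1.72% at room temperature. For cold it called 9.03% in the knockout-labelled arrays and 11.1% in controls. The list's medians in these 4 comparisons lay between -0.05 and 0.05.

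**Figure D3:**
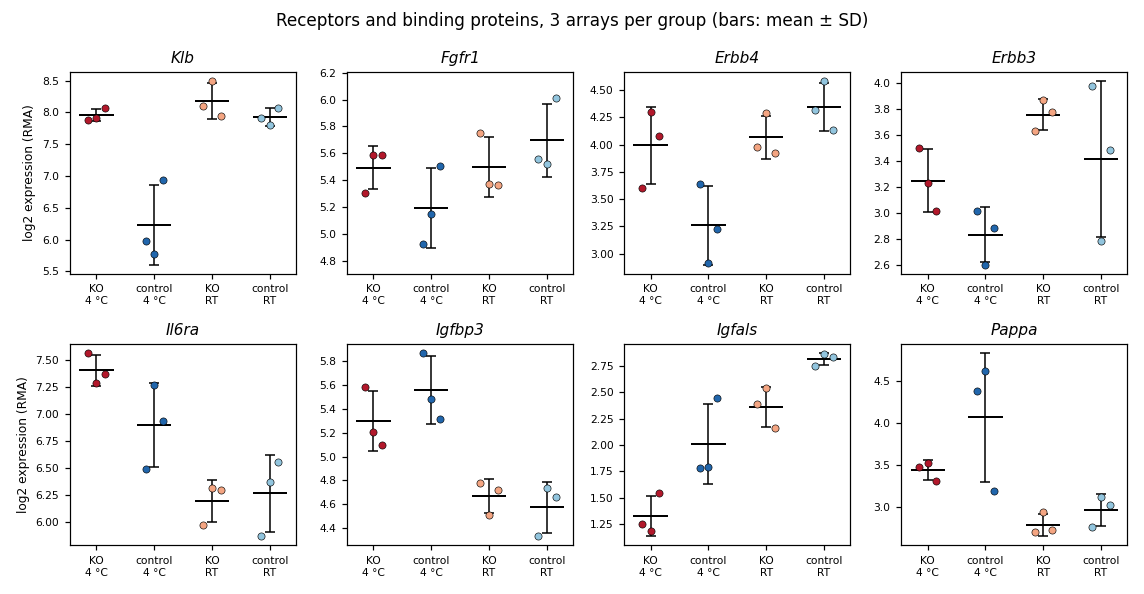
log2 expression of receptors and binding proteins of the secreted factors by group, with 1 point per array and the mean ± SD of 3 arrays. In controls Klb and Erbb4 are lower at 4 °C than at room temperature. In the knockout-labelled arrays Il6ra is higher at 4 °C than at room temperature. Igfals is lowest in the knockout-labelled arrays at 4 °C. By genotype at 4 °C, only Klb and Igfals passed the test.

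Of 37 measured family relatives of the members, 2 were higher and 1 lower in the knockout-labelled arrays at 4 °C, and 1 was lower at room temperature. With cold 2 rose in the knockout-labelled arrays, and 3 rose and 3 fell in controls. The shares of all probe sets called by genotype were 5.8% at 4 °C and 1.72% at room temperature. Those called for cold were 9.03% in the knockout-labelled arrays and 11.1% in controls. Stc1, the paralog of Stc2, read 5.15, 4.80 and 4.47 in the knockout-labelled arrays at 4 °C and 5.35, 4.68 and 4.32 in the controls at 4 °C, against 3.90, 3.34 and 3.15 in the knockout-labelled arrays and 2.77, 2.29 and 3.69 in the controls at room temperature. It rose with cold by 1.35 ± 0.35 in the knockout-labelled arrays (limma adjusted p = 0.0296) and by 1.86 ± 0.35 in controls (adjusted p = 0.00425), where Stc2 did not pass. The first call did not hold for each array left out (highest adjusted p 0.117, without knockout-labelled replicate 1 at 4 °C). Fgf9, another fibroblast growth factor, read 1.92, 2.16 and 1.85 in the knockout-labelled arrays at 4 °C, against 2.67, 3.16 and 3.13 in the controls at 4 °C, and was lower by 1.01 on the log2 scale (-1.01 ± 0.15, adjusted p = 0.00117). The knockout-labelled readings of Fgf9 lay near the array medians, so this difference may be understated. In controls Fgf9 rose with cold by 0.88 ± 0.15 (adjusted p = 0.00262), and in the knockout-labelled arrays the difference was 0.09 ± 0.15 (adjusted p = 0.831). Fgf18 was 1.9-fold higher in the knockout-labelled arrays at 4 °C (0.92 ± 0.18, adjusted p = 0.0072). At room temperature Bmp6 was lower by 0.76 on the log2 scale in the knockout-labelled arrays (-0.76 ± 0.15, adjusted p = 0.0229), a call that did not hold for each array left out (highest adjusted p 0.0874, without control replicate 3). The differences between the cold responses of these genes were not called, with 0 of 37 past the test, against 0.306% of all probe sets.

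Among 53 other measured factors reported as secreted by fat, 7 rose and 3 fell with cold in the knockout-labelled arrays, and 5 rose and 5 fell in controls. Over all probe sets, 4.32% rose and 4.7% fell in the knockout-labelled arrays, and 4.85% rose and 6.23% fell in controls. Fst, which encodes follistatin, an inhibitor of activins and myostatin, rose 4.32-fold in the knockout-labelled arrays (2.11 ± 0.20, limma adjusted p = 0.000107) and 4.66-fold in controls (2.22 ± 0.20, adjusted p = 8.07e-05). Serpina3n, a secreted protease inhibitor, rose by 2.04 ± 0.27 and 2.29 ± 0.27 in knockout-labelled and control arrays. Adm, the vasodilator adrenomedullin, rose by 1.66 in knockout-labelled and 1.34 in control arrays, and Edn1, the vasoconstrictor endothelin 1, by 0.98 in knockout-labelled and 1.51 in control arrays. Adm, Cxcl14, Edn1, Fst and Serpina3n rose in both genotypes and Vegfb fell in both, while the other called genes passed in 1 genotype only, a difference that was tested by the interaction and called for Angptl8 alone.

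By genotype, 1 of these 53 was higher and 3 were lower in the knockout-labelled arrays at 4 °C, where 5.8% of all probe sets were called, and 1 was higher and 2 were lower at room temperature, against 1.72%. Rbp4, a retinol carrier that fat also secretes, read 5.43, 5.29 and 5.91 in the knockout-labelled arrays at 4 °C, against 6.53, 6.85 and 7.62 in the controls at 4 °C, and was 2.74-fold lower (-1.46 ± 0.24, limma adjusted p = 0.00281). Retn, which encodes resistin, read 7.73, 7.71 and 8.42 in the knockout-labelled arrays at 4 °C and 9.11, 9.25 and 9.74 in the controls at 4 °C, a fall of 2.67-fold (-1.42 ± 0.28, adjusted p = 0.0103). That call was lost without knockout-labelled replicate 2 at 4 °C (adjusted p = 0.0532). At room temperature the differences of Rbp4 and Retn were both -0.88 and did not pass (adjusted p = 0.105 and 0.178). Apoe, the apolipoprotein E gene, was lower in the knockout-labelled arrays at room temperature (-0.73 ± 0.12, adjusted p = 0.00815), a call lost with the array of conflicting labels moved (adjusted p = 0.143). Angptl8, an insulin-responsive inhibitor of lipoprotein lipase, was the exception in that its genotype differences had opposite signs. It read 5.76, 6.06 and 6.35 in the knockout-labelled arrays and 6.66, 6.64 and 6.90 in the controls at 4 °C, and 7.02, 7.12 and 6.80 in the knockout-labelled arrays and 6.19, 6.34 and 6.35 in the controls at room temperature.

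**Figure D4:**
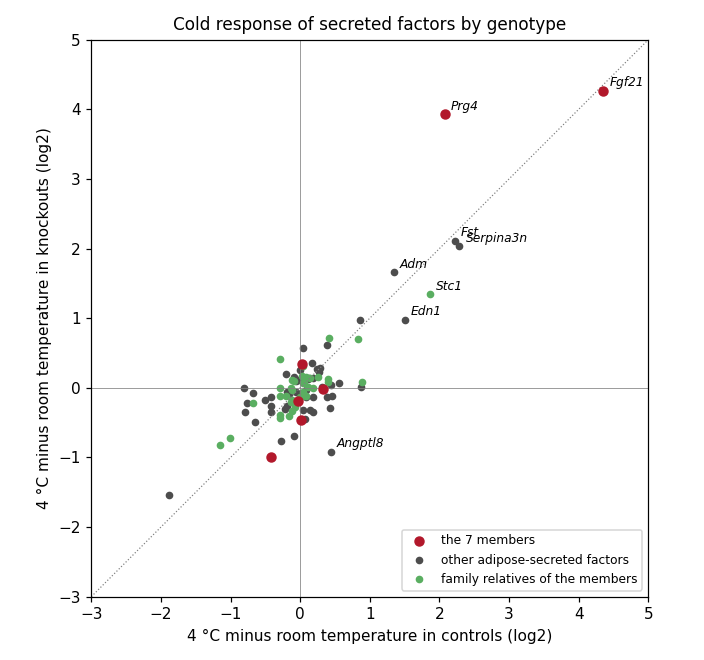
Cold response (4 °C minus room temperature, log2) of the 7 members, of 53 other adipose-secreted factors and of 37 family relatives, with controls on the x axis and knockout-labelled arrays on the y axis. The dotted line marks equal responses. Fgf21 lies near it at 4.35 and 4.27, Prg4 lies above it at 2.08 and 3.93, and Angptl8 lies below it.

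Regulators of the stress responses that act on Fgf21 did not follow a single pattern over the groups. Atf4 read 8.36, 8.18 and 8.24 in the knockout-labelled arrays and 8.55, 8.41 and 8.21 in the controls at 4 °C, against 7.31, 6.99 and 7.74 in the knockout-labelled arrays and 6.78, 6.50 and 7.07 in the controls at room temperature. Atf4 rose with cold in both genotypes (0.92 ± 0.19, limma adjusted p = 0.00859, in the knockout-labelled arrays and 1.61 ± 0.19, adjusted p = 0.000301, in controls), and its genotype differences were not called (-0.13 at 4 °C and 0.56 at room temperature, adjusted p = 0.822 and 0.193). Ddit3, which encodes CHOP, was higher in the knockout-labelled arrays at 4 °C (1.36 ± 0.14, adjusted p = 7.24e-05) and at room temperature (1.22 ± 0.14, adjusted p = 0.000555). It read 6.47, 6.63 and 6.36 in the knockout-labelled arrays and 5.20, 5.00 and 5.18 in the controls at 4 °C, and 5.95, 6.11 and 6.16 in the knockout-labelled arrays and 5.13, 4.87 and 4.54 in the controls at room temperature. Cold differences of Ddit3 were 0.41 and 0.28 in knockout-labelled and control arrays and did not pass (adjusted p = 0.106 and 0.279), while averaged over genotypes the cold difference of 0.35 was called (adjusted p = 0.0321).

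Trib3, a pseudokinase gene induced by ATF4 and CHOP, read 6.85, 5.85 and 6.29 in the knockout-labelled arrays and 5.21, 5.00 and 5.95 in the controls at 4 °C, and 5.42, 5.41 and 5.93 in the knockout-labelled arrays and 3.71, 3.13 and 3.59 in the controls at room temperature. As with Fgf21, its controls at room temperature were lowest, but its groups at 4 °C overlapped. Xbp1, the target of the IRE1 branch, read between 8.35 and 8.41 in the knockout-labelled arrays and between 6.09 and 6.45 in controls at 4 °C. Ppara encodes the fasting receptor that drives Fgf21 in liver. It read 5.48, 5.36 and 5.35 in the knockout-labelled arrays at 4 °C and 7.19, 6.68 and 6.81 in the controls at 4 °C, and it lay between 6.89 and 7.59 on the arrays at room temperature. It was lower in the knockout-labelled arrays at 4 °C (-1.49 ± 0.17, limma adjusted p = 0.000165) and was not called by genotype at room temperature (0.15, adjusted p = 0.814) or with cold in controls (-0.26, adjusted p = 0.428). Of 25 regulators, 11 were higher and 2 lower in the knockout-labelled arrays at 4 °C, and 5 were higher and 0 lower at room temperature. Over all probe sets, 3.61% were higher and 2.19% lower at 4 °C, and 1.29% higher and 0.429% lower at room temperature. The list's medians were 0.47 at 4 °C and 0.45 at room temperature, against -0.01 over all probe sets in both.

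Among 13 ERK feedback and early response genes, which FGF receptor signalling induces as do many other stimuli, 5 rose with cold in the knockout-labelled arrays and 5 in controls, and 0 fell in either. Over all probe sets, 4.32% rose with cold in the knockout-labelled arrays and 4.85% in controls. Dusp6, an ERK phosphatase, read 9.32, 9.52 and 9.37 in the knockout-labelled arrays and 9.45, 9.17 and 9.01 in the controls at 4 °C, against 8.12, 7.68 and 8.38 in the knockout-labelled arrays and 7.43, 6.67 and 7.73 in the controls at room temperature. It rose by 1.35 ± 0.24 in the knockout-labelled arrays (limma adjusted p = 0.00411) and by 1.93 ± 0.24 in controls (adjusted p = 0.000447). Spry4, an inhibitor of receptor tyrosine kinase signalling, had a cold difference of 1.16 ± 0.34 in the knockout-labelled arrays that did not pass (adjusted p = 0.0527) and rose by 2.25 ± 0.34 in controls (adjusted p = 0.00134). Dusp6 and the early response gene Fos were called in both genotypes, Dusp5, Spry2 and Egr1 in the knockout-labelled arrays, and Spry4, Spred2 and Ier2 in controls. The difference between the cold responses was called for 0 of 13, against 0.306% of all probe sets. By genotype limma called 0 of 13 at either temperature, with medians of 0.11 at 4 °C and 0.40 at room temperature. The shares of all probe sets called were 5.8% at 4 °C and 1.72% at room temperature.

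**Figure D5:**
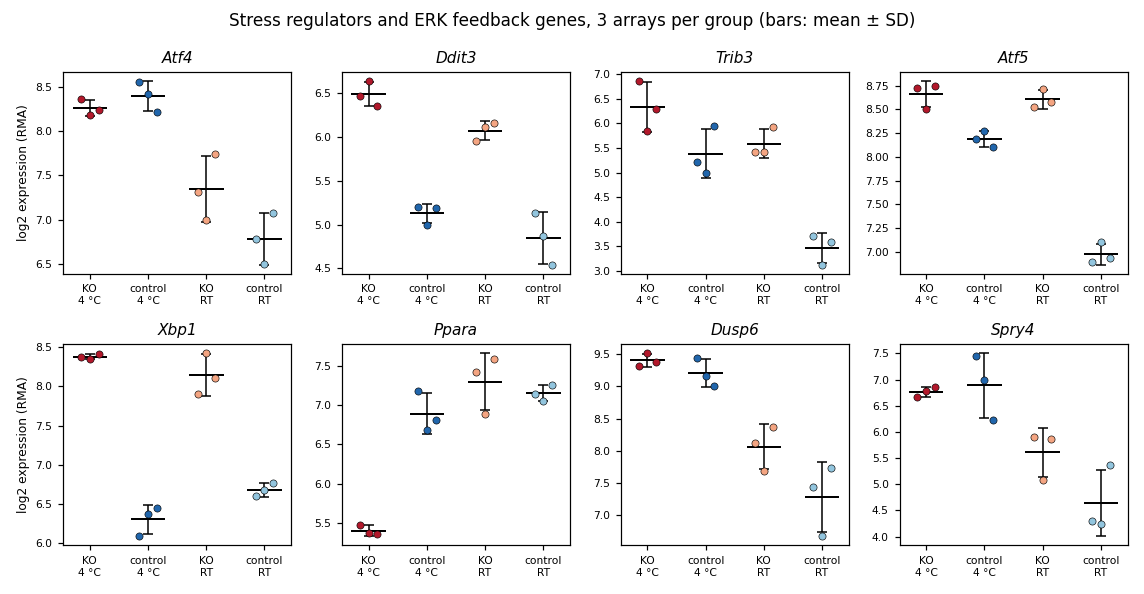
log2 expression of stress regulators and ERK feedback genes by group, with 1 point per array and the mean ± SD of 3 arrays. Atf4 separates by temperature, Ddit3 and Xbp1 are higher in the knockout-labelled arrays at both temperatures, Ppara is lowest in the knockout-labelled arrays at 4 °C, and Dusp6 is higher at 4 °C in both genotypes.

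Genes whose readings ran most like each member over the 12 arrays were found among those above the median level. For Fgf21 these were Slc39a14, Sf1 and Rnf4, with a Pearson r of 0.985, 0.978 and 0.976. For Prg4 they were Agfg1, Srxn1 and Polr3d (0.98, 0.975 and 0.968). For Nrg4 they were Exoc8, Pik3c2b and Ppara, with r of 0.926, 0.921 and 0.914, and for Igf1 they were Cyb5r3, Kcnn1 and Mmd (0.942, 0.931 and 0.915). For the dim members the closest genes were AU021092 for Bmp8b (0.893), Dst for Il6 (0.903) and Mbp for Stc2 (0.9). The arrays fall into 4 groups, so that these coefficients mostly read the shared order of the groups, and they are the highest of about 11089 candidates for each member.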

How the data were processed

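RNA of brown adipose tissue was measured on 12 whole-transcript arrays. The deposited table holds log2 expression values that the authors made with RMA, per the submitters' processing notes. No source used here gives the version of RMA. In all there are 41345 probe sets with values from 0.27 to 13.02. Gene names came from the platform annotation, in which 23521 probe sets carry 1 symbol, 1814 several and 16010 none. A gene with several probe sets was read from the brightest by mean over 12 arrays. Each member has 1.

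Group means of the 12 arrays were estimated together in limma 3.58.1 (R 4.3.3; 8 residual degrees of freedom, prior 4.45). Within each comparison, Benjamini-Hochberg adjustment ran over 23521 probe sets, and 0.05 was the threshold for a call. Adjusted p-values are from limma and errors are its standard errors, with n = 3 arrays per group. Each title gives a mouse and a replicate number, so that p-values rest on the spread between these mice. The code was tested on simulated data. Array number limits the precision, and no scanner intensities were used, so background was not assessed per probe.

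The members and gene lists were chosen with earlier results of these data known. The text names all members and, of each list, a choice of the called genes and not all of them. Called genes left unnamed include Ctf1, Gdf5, Inhba, Nrg2 and Bmp4 among the relatives, and Eif2ak3, Sesn2, Ppp1r15a and Chac1 among the stress regulators. Some direct receptors and partners are named, as are the 3 genes most like each member, or only the closest for the dim members. Gdf15 is not reported. Marker genes of other cell types were read. Alternatives were leaving out each array, moving the array with conflicting labels, a replicate block, a filter on dim probe sets, a trended robust prior, median centring, a muscle covariate, all probe sets, and only the arrays compared.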

Additional observations from a re-analysis of the deposited data

Results flagged for a closer look

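Among the members no difference between the cold responses passed the test. Among the listed genes 5 did, by limma's interaction over all probe sets, of which 0.306% passed. Angptl8 had an interaction of -1.36 ± 0.21 (adjusted p = 0.0235), with a cold difference of -0.92 in the knockout-labelled arrays and 0.44 in controls. Of the stress regulators, the transcription factors Atf5 (-1.16 ± 0.16, adjusted p = 0.00893) and Atf3 (-2.36 ± 0.40, adjusted p = 0.0314) and the receptor Ppara (-1.64 ± 0.25, adjusted p = 0.0188) also had negative interactions. Creb3l2, an ER membrane-bound transcription factor, had a positive one (1.53 ± 0.16, adjusted p = 0.00169). Those of Angptl8, Atf3 and Ppara did not hold for each array left out (highest adjusted p 0.0845, 0.101 and 0.0793, in that order, with knockout-labelled replicate 2 at 4 °C left out). With the array of conflicting labels moved to 4 °C, Atf5 and Creb3l2 also missed the threshold (adjusted p = 0.721 and 0.0613).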

How the results depend on the processing

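Of 938 member results recomputed under an alternative, 876 kept their direction and their side of the threshold, 26 lost a call, 8 gained one and 28 turned direction, the last all of differences that were not called. With control replicate 3 at room temperature moved to the 4 °C controls, members called for genotype at room temperature numbered 0 (177 probe sets in all), those for cold in controls 0 (0 probe sets, 2 members and 3602 probe sets at an unadjusted p under 0.05), and those for averaged genotype 1. In that setting limma called 1044 probe sets for cold in knockout-labelled arrays, 17 for the interaction and 2267 for averaged cold. No member was called for genotype at room temperature with the replicate block (interaction 47 probe sets), with the muscle covariate (190 probe sets, interaction 41, averaged genotype 1042), with all probe sets tested (interaction 22) or with only the arrays compared (245 probe sets). In each of these Fgf21 had an unadjusted p under 0.05. With all probe sets tested, 1 member was called for genotype at 4 °C. Small uncalled differences changed sign: cold in controls for Stc2 with the moved array (0.087) and the muscle covariate (0.0063), for Nrg4 after centring (-0.010) and with the covariate (-0.0047), for Il6 with the covariate (-0.013), the interaction of Fgf21 with the moved array (0.53), and averaged genotype for Il6 (-0.025) and Stc2 (0.060) with the covariate.

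Leaving out single arrays gave 0 to 1 members and 255 to 458 probe sets called for genotype at room temperature, 1 to 2 and 842 to 1345 for genotype at 4 °C, 2 and 1608 to 2875 for cold in controls, 2 to 4 and 1276 to 2300 for cold in knockout-labelled arrays, 0 and 21 to 123 for the interaction, 2 and 1261 to 1654 for averaged genotype, and 2 to 3 and 3509 to 4363 for averaged cold. The lowest counts of probe sets came without control replicate 2 at room temperature (genotype at room temperature), control replicate 2 at 4 °C (cold in controls and averaged cold) and knockout-labelled replicate 2 at 4 °C (the others). The cause of these changes was not tested. Uncalled members that turned direction without a single array ranged from -0.19 to 0.0063 (Il6) and -0.077 to 0.12 (Stc2) for genotype at room temperature, -0.39 to 0.31 (Igf1) at 4 °C, -0.056 to 0.076 (Nrg4), -0.058 to 0.12 (Il6) and -0.15 to 0.040 (Stc2) for cold in controls, -0.14 to 0.049 (Bmp8b) for cold in knockout-labelled arrays, -0.53 to 0.22 (Fgf21) for the interaction, and -0.017 to 0.37 (Igf1) and -0.10 to 0.0022 (Stc2) for averaged genotype. Of 2148 results of called list genes, 1798 kept their call, 350 lost it and 0 turned direction. Replicate numbers are shared between groups. Over all probe sets, deviations of same-numbered arrays from their group means had r from -0.18 to 0.165 over 18 pairs, 2 above 0.1. Whether same-numbered mice shared a litter or a day was not tested. The alternative of averaging several probe sets of a member was not run, since each member has 1.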
